A study of Mus musculus with 9 samples.

Results

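Integrins are cell surface receptors made of 1 alpha and 1 beta chain, with which leukocytes hold on to other cells and to the extracellular matrix. Followed here are 9 integrin chains, Itgam, Itgax, Itgal, Itga4, Itga6, Itgav, Itgb1, Itgb2 and Itgb5, together with Selplg, which encodes PSGL-1. They were taken by gene symbol and are 10 of the 31053 genes counted in every library. All 10 passed the filter on low counts in microglia, the cells the samples mainly held, Itgal only through the D0 and D2 libraries.

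Live CD11b+ cells were sorted from the brains, without cerebellum, of adult C57BL/6 mice and profiled with the droplet-based 10x Genomics 3′ chemistry in 9 libraries, 3 for each of 3 conditions. Ctrl mice were not treated. D0 mice ate PLX5622 (PLX), an inhibitor of the kinase CSF1R on which microglia depend, at 1200 mg/kg of diet over 14 days, and D2 mice ate the same diet for the same time and then had 2 days of control diet. No group carried a transgene, and all 3 went through the same dissociation and the same antibody. The study describes the mice as C57BL/6J females 5 months of age. Each Ctrl library held 1 brain and each D0 or D2 library 2 pooled brains, so the spread between D0 or D2 libraries is between pools.

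CD11b is the product of Itgam, so every cell below had passed a gate on the protein of one of the genes described. CD11b, CD11c (Itgax) and CD11a (Itgal) each pair with the CD18 chain, encoded by Itgb2, and bind complement fragments, ICAM proteins or fibrinogen. The alpha chains CD49d (Itga4) and CD49f (Itga6) pair with CD29 (Itgb1) and bind VCAM-1 and fibronectin or laminin, respectively, and CD51 (Itgav) pairs with several beta chains, among them that of Itgb5, to bind vitronectin and latent TGF-beta. PSGL-1 is a mucin that binds selectins on activated endothelium and platelets once sugars and sulfate have been added to it.

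The genes Itgal (chr7:127296260-127335138), Itgam (chr7:128062640-128118491) and Itgax (chr7:128129547-128150657) lie on the plus strand of chromosome 7 in GRCm38, Itga6, Itga4 and Itgav on chromosome 2, Itgb1 on 8, Itgb2 on 10, Itgb5 on 16 and Selplg on 5. The RefSeq table of promoters (GRCm38.p6) holds 6 of the 10 members, and the 250 bases before the start of 4 of them are given here because their level passed the test in D2 microglia below. Capitals mark GAGGAA, read as TTCCTC on the other strand, the core of the PU-box that the myeloid transcription factor PU.1 is known to bind.
Itgam, chr7:128062390-128062639, plus strand: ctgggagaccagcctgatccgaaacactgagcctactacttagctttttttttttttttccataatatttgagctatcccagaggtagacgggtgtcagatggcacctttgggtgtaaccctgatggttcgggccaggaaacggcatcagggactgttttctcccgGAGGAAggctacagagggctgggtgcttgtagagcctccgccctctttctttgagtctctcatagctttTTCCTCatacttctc
Itgax, chr7:128129300-128129549, plus strand: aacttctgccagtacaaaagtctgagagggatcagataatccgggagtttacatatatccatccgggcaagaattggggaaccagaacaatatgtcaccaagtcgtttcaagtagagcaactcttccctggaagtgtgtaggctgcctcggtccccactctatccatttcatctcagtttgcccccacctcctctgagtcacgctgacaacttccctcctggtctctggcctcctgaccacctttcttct
Itga4, chr2:79255176-79255425, plus strand: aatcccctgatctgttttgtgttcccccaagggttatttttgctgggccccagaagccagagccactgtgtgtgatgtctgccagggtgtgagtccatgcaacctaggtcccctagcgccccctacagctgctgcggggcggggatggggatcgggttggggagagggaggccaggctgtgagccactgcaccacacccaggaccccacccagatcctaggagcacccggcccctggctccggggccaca
Itgav, chr2:83724147-83724396, plus strand: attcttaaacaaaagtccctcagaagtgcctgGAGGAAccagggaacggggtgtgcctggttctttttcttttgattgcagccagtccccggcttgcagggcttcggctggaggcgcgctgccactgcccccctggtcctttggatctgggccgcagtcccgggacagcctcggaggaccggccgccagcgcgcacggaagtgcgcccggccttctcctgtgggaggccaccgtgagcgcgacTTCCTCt
The promoters of Itgam and Itgav each hold 2 matches, and those of Itgax and Itga4 hold none. Of the 6 promoters, 3 (with that of Itgb1) hold a match, and 23.3% of the 32851 promoters in the table do. A match is a description of these letters and not evidence of binding.

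Each library was described by the number of unique molecular identifiers (UMIs, tags that count captured transcripts once) per gene and barcode. The libraries held 20257894 to 61230741 UMIs, and the UMIs summed over microglia-like cells ranged from 11824500 to 36954000 in the 8 libraries used. Levels are given as CPM, the usual scaling of a gene's UMIs to the summed UMIs of the same cells, and the error is the SD between libraries. D2-3 stood apart from the others: 27.3% of its kept cells were monocyte-like, 37.3% of its barcodes exceeded 20000 UMIs and were dropped, and 776 microglia-like cells were left, of which 116 were not mitotic. It was left out of all tests and means, and its values are given apart. Any 2 libraries shared between 1 and 8 barcodes.

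Clusters were drawn without the 10 members and named by other markers. They gave 21889 microglia-like cells, 1177 neutrophil-like, 903 endothelial-like, 454 monocyte-like, 405 dendritic cell-like, 303 mural-like, 298 border-associated macrophage-like (BAM-like), 192 ependymal-like, 161 astroglial-like and 158 lymphoid-like cells. Another 2715 cells stayed unnamed, 1516 and 799 of them in clusters of few UMIs (medians of 1484 and 1842 per cell) in which all 10 microglia markers were counted. All 10 microglia markers were at 20 CPM or more in microglia-like cells, all 9 neutrophil markers in neutrophil-like and all 7 endothelial markers in endothelial-like cells. Levels by type are means over libraries with at least 20 cells of the type and are a description with no test. Dendritic cell-like cells reached that number in D0 and D2 libraries only, and BAM-like cells in Ctrl libraries only. Their place beside other types thus also holds the difference between conditions.

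Of the chains that pair with Itgb2, Itgam was highest in neutrophil-like (480.3 ± 69.7 CPM, 7 libraries) and microglia-like cells (441 ± 101 CPM, 8 libraries), followed by BAM-like cells (345 ± 64.2 CPM, 3 libraries). These 3 levels differed by less than the SD of the more variable neighbour, but BAM-like cells were measured in Ctrl libraries alone, where microglia-like cells held 538 ± 33.1 CPM, more than the larger SD above them. The next step, to monocyte-like cells (203 ± 76.2 CPM), was larger than that, and the level fell further to lymphoid-like (161 ± 26.2 CPM), dendritic cell-like (111 ± 10.4 CPM), endothelial-like (35.3 ± 12.3 CPM) and mural-like cells (23.8 ± 21.3 CPM). The sorted cells thus included types in which few Itgam transcripts were counted.

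Itgal had another order. It was highest in monocyte-like (318 ± 207 CPM), lymphoid-like (195 ± 74.7 CPM) and neutrophil-like cells (189.8 ± 98.5 CPM), which did not differ beyond their spread. BAM-like cells held 48.8 ± 75.3 CPM, of which the Ctrl-2 library gave 136 CPM and both other libraries under 10. Microglia-like cells held 1.17 ± 0.865 CPM and endothelial-like cells 3.13 ± 4.35 CPM, which did not differ beyond their spread. Itgax was highest in lymphoid-like (92.7 ± 20.4 CPM), a cluster led by Gzma, Nkg7 and other genes of killer cells, and in dendritic cell-like cells (81.7 ± 22.0 CPM), whose classical surface marker it encodes. Microglia-like cells stood at 11.9 ± 6.58 CPM, more than the larger SD above endothelial-like cells at 1.64 ± 2.00 CPM, a type that should lack the gene. Its UMIs there give a level for RNA of other cells, whether free or in doublets, which were not told apart. The shared beta chain Itgb2 ranged from 488 ± 205 CPM in lymphoid-like, 453 ± 198 CPM in monocyte-like and 428 ± 42.2 CPM in neutrophil-like cells to 240 ± 38.0 CPM in microglia-like cells and 8.85 ± 5.05 CPM in mural-like cells.

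Within named types, clusters differed. Monocyte-like cells led by Ace, a marker of patrolling monocytes (155 cells, 3 libraries), held 1031 ± 164 CPM of Itgal, 1088 ± 112 CPM of Itgb2 and 131 ± 52.3 CPM of Itgax. Those led by Ly6c2, the marker of classical monocytes (299 cells, 6 libraries), held 126 ± 39.0, 298 ± 54.9 and 14.8 ± 15.8 CPM. Neutrophil-like cells led by Cxcr2, a receptor of mature neutrophils (739 cells, 6 libraries), held 288 ± 72.3 CPM of Itgal and 1091 ± 427 CPM of Selplg. Those led by Camp, a granule gene of immature neutrophils (438 cells, 4 libraries), held 70.4 ± 28.9 and 145 ± 24.1 CPM. Itgam lay the other way, with 415 ± 64.5 CPM in the Cxcr2-led and 505 ± 84.7 CPM in the Camp-led cells, somewhat more than the larger SD apart. Camp-led cells were the higher in each library with a level for both. They held 428 against 417 CPM in D0-2, 601 against 423 in D0-3, 550 against 451 in D2-1 and 440 against 328 in D2-2.

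Itgb1 was highest in mural-like cells (1353 ± 382 CPM), the smooth muscle cells and pericytes of vessels, by more than their SD above lymphoid-like cells (622 ± 205 CPM) and endothelial-like cells (485 ± 85.2 CPM). Microglia-like (307 ± 74.4 CPM), monocyte-like (277 ± 54.0 CPM), BAM-like (269.7 ± 58.9 CPM) and dendritic cell-like cells (262 ± 43.5 CPM) did not differ beyond their spread, and neutrophil-like cells were lowest (66.0 ± 23.0 CPM). Of the alpha chains that pair with it, Itga4 was highest in monocyte-like (437 ± 132 CPM) and lymphoid-like cells (434 ± 166 CPM). Dendritic cell-like cells held 198 ± 81.3 CPM, mural-like cells 102 ± 34.5 CPM, BAM-like cells 101 ± 55.0 CPM and neutrophil-like cells 85.7 ± 39.9 CPM, whereas endothelial-like (12.05 ± 7.60 CPM) and microglia-like cells (5.87 ± 5.87 CPM) were lower by more than the larger SD. Itga6 was highest in endothelial-like cells (442 ± 41.2 CPM), which rest on laminin, then in microglia-like (216 ± 32.4 CPM, or 243 ± 35.3 CPM in Ctrl alone) and BAM-like cells (186 ± 5.95 CPM). Monocyte-like and dendritic cell-like cells held 6.09 ± 7.14 and 3.76 ± 1.43 CPM of Itga6.

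Itgb5 was the member with the clearest step at microglia. It reached 998 ± 91.6 CPM in microglia-like and 606 ± 76.0 CPM in BAM-like cells, each more than the larger SD above the next type, and 53.5 ± 22.2 CPM in monocyte-like and 29.0 ± 9.83 CPM in dendritic cell-like cells. Itgav, its partner, was at 95.6 ± 6.07 CPM in astroglial-like, 91.0 ± 23.2 CPM in microglia-like and 86.9 ± 13.1 CPM in BAM-like cells, although Ctrl microglia-like cells alone held 116 ± 6.69 CPM, more than the larger SD above BAM-like cells. It was at 15.8 ± 1.83 CPM in dendritic cell-like cells. Selplg was highest in microglia-like (1813 ± 845 CPM, or 2713 ± 550 CPM in Ctrl alone) and BAM-like cells (1296 ± 416 CPM) and then in neutrophil-like cells (736 ± 546 CPM). RNA of microglia was counted in other types too: the summed CPM of the 10 microglia markers was 20932 ± 5996 in microglia-like, 6655 ± 7571 in astroglial-like, 3240 ± 3329 in neutrophil-like and 1386 ± 455 in endothelial-like cells. Its part in the levels of Selplg, Itgb5 and Itgam in those types was not tested.

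**Figure D1:**
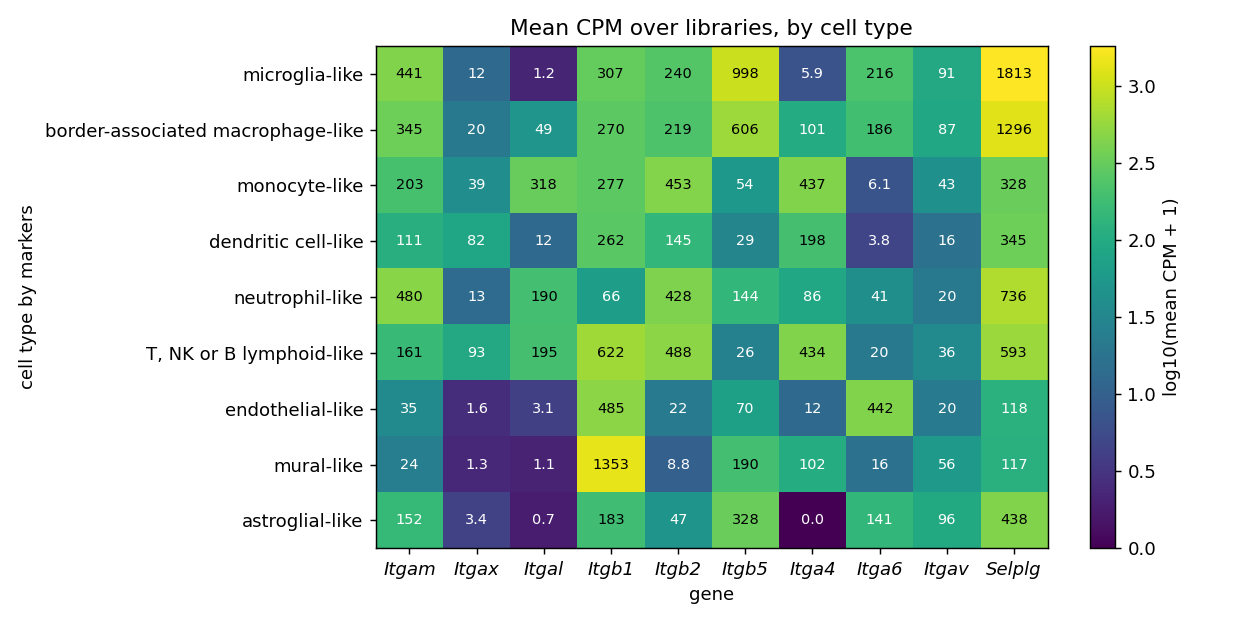
Mean level of each member (columns) in each named cell type (rows), in CPM over libraries with at least 20 cells of the type; colour is log10 of the mean CPM plus 1 and the numbers are the means. Itgb5 peaks in microglia-like, Itgb1 in mural-like and Itga6 in endothelial-like cells, whereas Itgal and Itga4 are highest in monocyte-like cells and low in microglia-like cells.

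Likeness to a member was measured as Pearson's r of log2(CPM + 10) over the 9 named types with a level, among genes of at least 50 CPM in 1 type. For Itgam the nearest genes were Plcl2 (r = 0.972), Mboat7 (0.970) and Il16 (0.957), for Itgal Ly6c2 (0.982), for Itgb2 Ptpre (0.991), Limd2 (0.977) and Ptprc (0.976), for Itgb5 Dtx4 (0.983) and Garnl3 (0.978), and for Selplg Inpp5d (0.964). The types share libraries and some RNA, so these values only describe which genes followed the same order.

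A cell in the gate did not always yield an Itgam UMI. To compare cells of unequal depth, each cell was thinned to 2000 UMIs, which left out 355 of 8839 Ctrl, 280 of 8603 D0 and 329 of 4447 D2 microglia-like cells. After thinning, 36.4%, 38.0% and 39.4% of the microglia-like cells of the Ctrl libraries had no Itgam UMI, 45.0%, 46.4% and 41.0% of those of D0, and 55.8% and 58.9% of those of D2. The ranges of the 3 conditions did not overlap, with the lowest shares in Ctrl and the highest in D2, and D2-3 was at 67.2%. The mean was 38.0% ± 1.52 in Ctrl, 44.1% ± 2.79 in D0, a difference of 6.16 percentage points, and 57.4% ± 2.22 in D2, a difference of 19.4 points. Two-sided exact permutation tests gave p = 0.1 and p = 0.2, which are the smallest values that 3 libraries against 3 and 2 against 3 allow, so neither could reach 0.05. Unthinned, the shares were 7.82% ± 1.59 in Ctrl, 11.4% ± 6.27 in D0 and 25.9% ± 0.510 in D2. Without mitotic cells the difference of D0 was 3.01 points (exact permutation p = 0.3), and D0-3, at 36.8%, then lay within the Ctrl range. Thinning gives every cell the same total, so the thinned shares are on the scale of total UMIs. On that scale the median log2 fold change of all genes in microglia-like cells was −0.27 in D0 and −0.14 in D2. The fit below, which scales by TMM factors, did not call Itgam lower in D0.

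The mean over the 8 libraries was 45.1% ± 8.30 without an Itgam UMI, against 41.9% if the UMIs of each library fell on its cells by Poisson counting. Neutrophil-like cells had a like share (39.9% ± 9.85), whereas 59.98% ± 7.48 of BAM-like, 66.3% ± 10.0 of monocyte-like, 81.0% ± 5.24 of dendritic cell-like and 96.7% ± 2.11 of endothelial-like cells had no Itgam UMI. The 3.31% ± 2.11 of endothelial-like cells with a UMI give a level for RNA of other cells, whether free or in doublets. Median UMIs before thinning were 7162 in microglia-like and 3644 in endothelial-like cells.

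**Figure D2:**
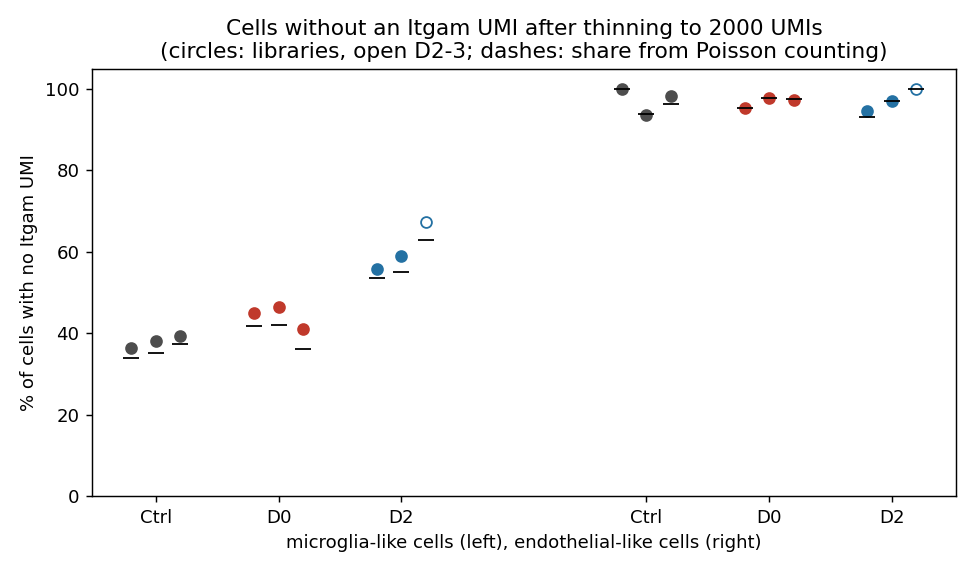
Share of cells with no Itgam UMI (y axis, %) after each cell was thinned to 2000 UMIs, for microglia-like cells on the left and endothelial-like cells on the right; each circle is 1 library (open, D2-3) and each dash the share that Poisson counting gives at that library's mean. In microglia-like cells the share lies between 36.4% and 39.4% in Ctrl, 41.0% and 46.4% in D0, and 55.8% and 58.9% in D2, each somewhat above its dash. The shares are on the scale of total UMIs, on which the median of all genes was also lower in D0 and D2 than in Ctrl.

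Microglia-like cells with and without an Itgam UMI were compared within each library. Of the 7 other members tested, 2 were higher in cells with a UMI by edgeR's quasi-likelihood test, where 3.1% of all 9639 genes were called (0.747% higher, 2.36% lower). Selplg was at 1915 ± 857 CPM with and 1806 ± 895 CPM without an Itgam UMI, higher in 7 of 8 libraries (log2 fold change 0.10 ± 0.026 SE, adjusted p = 0.0066). Itgb5 was at 1023 ± 80.1 and 964 ± 98.5 CPM, also higher in 7 of 8 (0.09 ± 0.026, adjusted p = 0.042). Both differences were small. DESeq2 called neither, Selplg was lost without D0-1 (adjusted p = 0.065) or D2-2 (0.062), and Itgb5 without D0-1, D0-2, D0-3, D2-1 or D2-2 (0.070 to 0.20). Itgb2, the partner chain, stood at 241 ± 38.3 against 229.9 ± 34.5 CPM (adjusted p = 0.47). The summed monocyte markers were lower with an Itgam UMI in 7 of 8 libraries (medians 393 and 398 CPM) and the microglia markers higher in 8 of 8 (medians 20035 and 18238 CPM). Their part in these differences was not tested.

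Levels in microglia were compared between conditions on UMIs summed per library, in 1 fit of the 3 groups over 12418 genes. In D0, Itgax, Itgal and Itga4 were called higher than in Ctrl and Selplg lower, 4 of 10 members, where 20.2% of all genes were called (12.5% higher, 7.67% lower). In D2, Itgax, Itgal and Itga4 were again higher, and Itgam, Itgav and Selplg lower, 6 of 10 members, where 18.4% of genes were called (10.8% higher, 7.58% lower). Itgal is counted among these although only the treated libraries brought it past the filter. Both comparisons share the Ctrl libraries. In such sums, fewer cells with the transcript and less of it per cell cannot be told apart.

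Selplg fell in both conditions. The Ctrl libraries held 2095, 3149 and 2895 CPM, the D0 libraries 1449, 1399 and 1701 CPM, and D2-1 and D2-2 917 and 894 CPM. No ranges overlapped, every D0 library being below every Ctrl library and both D2 libraries below every D0 library. The means were 2713 ± 550, 1516 ± 162 and 906 ± 16.2 CPM, and the log2 fold changes −0.64 ± 0.17 (SE, adjusted p = 0.029) in D0 and −1.48 ± 0.20 (adjusted p = 9.6e-04) in D2. The call in D0 rests on several libraries. Its adjusted p by edgeR's quasi-likelihood test was 0.11 without Ctrl-2, 0.11 without Ctrl-3, 0.070 without D0-1 and 0.10 without D0-2. It was 0.071 without mitotic cells and 0.19 with D2-3 included. With the Cell Ranger version of the file as a term the fold change was −0.18. Ctrl-2 and Ctrl-3 are of the other version, so that fit compares D0 and D2 with Ctrl-1 alone. Within the version shared by Ctrl-1 and the D0 and D2 libraries, Ctrl-1 was still above all 5.

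Itgam, the sort marker, fell in D2. The Ctrl libraries held 569, 542 and 503 CPM, the D0 libraries 419, 407 and 481 CPM, and D2-1 and D2-2 314 and 295 CPM. The 3 ranges did not overlap. The fold change in D2 was −0.71 ± 0.12 (adjusted p = 0.0033), and it was called lower in every alternative fit run. In D0 the fitted change was −0.09 ± 0.11 (adjusted p = 0.58) although all 3 libraries were below Ctrl in CPM, since the fit scales by TMM factors: scaled by total UMIs alone the change was −0.30 (adjusted p = 0.054), and the median of all genes then moved from −0.05 to −0.27. Itgam is thus lower in D0 as a share of all UMIs but was not called lower relative to the other genes.

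Itgav, the vitronectin receptor chain, held 123, 110.2 and 114 CPM in Ctrl, 76.4, 68.2 and 97.8 CPM in D0, and 74.9 and 63.1 CPM in D2. All treated libraries were below all Ctrl libraries. The fold change was −0.31 ± 0.14 (adjusted p = 0.14) in D0 and −0.64 ± 0.16 (adjusted p = 0.020) in D2. The call in D2 was lost without Ctrl-2 (adjusted p = 0.052), Ctrl-3 (0.071), D2-1 (0.066) or D2-2 (0.15), without mitotic cells (0.064) and in the fit that models the Cell Ranger version (0.081), and one in D0 was gained without D0-3 (−0.47, adjusted p = 0.031).

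Itgax rose from a low level. The Ctrl libraries held 4.63, 5.20 and 4.91 CPM, the D0 libraries 20.3, 15.9 and 9.20 CPM, and D2-1 and D2-2 16.1 and 18.5 CPM. The Ctrl libraries lay close together and below all others, and D0-3 was the lowest of the treated libraries. The fold changes were 1.83 ± 0.26 (adjusted p = 0.0011) in D0 and 1.93 ± 0.28 (adjusted p = 0.0015) in D2. After thinning, 0.657% to 0.805% of Ctrl, 1.31% to 3.53% of D0 and 2.69% to 2.81% of D2 microglia-like cells had an Itgax UMI, against at most 0.787% of the endothelial-like cells of a library. The 11 monocyte markers summed to 334 to 469 CPM in Ctrl, 390.0 to 631 CPM in D0 and 385 to 388 CPM in D2 microglia-like cells, and the 10 dendritic cell markers to 61.4 to 73.8, 64.6 to 75.2 and 59.0 to 60.4 CPM.

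Itga4 rose in steps, with 0.978, 1.54 and 1.09 CPM in Ctrl, 6.68, 5.25 and 1.89 CPM in D0, and 15.3 and 14.2 CPM in D2. No ranges overlapped. The fold changes were 2.17 ± 0.41 (adjusted p = 0.0063) in D0 and 3.74 ± 0.44 (adjusted p = 4.0e-04) in D2. By edgeR's quasi-likelihood test the call in D0 was lost with D2-3 included (adjusted p = 0.057). Over all kept myeloid cells neither call was made (adjusted p = 0.35 and 0.072). That set held the microglia-like, BAM-like, monocyte-like, dendritic cell-like and unnamed cells, without the neutrophil-like. The counts behind the fold changes were 82 UMIs in all Ctrl, 357 in D0 and 465 in D2 microglia-like cells. Endothelial-like cells held 12.3, 7.66 and 0 CPM in Ctrl, 8.02, 9.39 and 14.4 CPM in D0, and 21.6 and 23.0 CPM in D2, so that the microglial level was below theirs in 7 of the 8 libraries. After thinning, the share of microglia-like cells with an Itga4 UMI was 0.189% to 0.284% in Ctrl, 0.342% to 1.15% in D0, and 3.03% and 2.25% in D2, against 3.91% and 3.03% of endothelial-like cells in D2. As a share of cells and as a level, Itga4 in microglia thus lay at or below that of endothelial-like cells in most libraries. The part of free RNA in its rise was not tested.

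Itgal, the alpha chain of LFA-1, was counted only 13 times in all Ctrl, 129 times in D0 and 52 times in D2 microglia-like cells. It held 0.263, 0.212 and 0.0805 CPM in Ctrl, 2.12, 1.60 and 1.53 CPM in D0, and 1.34 and 2.199 CPM in D2. The fold changes were 3.41 ± 0.42 (adjusted p = 4.8e-04) in D0 and 3.31 ± 0.46 (adjusted p = 0.0012) in D2. Only the D0 and D2 libraries brought Itgal past the filter on low counts, so these p-values give no support for a rise. Endothelial-like cells held 7.66 CPM in Ctrl-2, 8.02 in D0-1 and 9.39 in D0-2. They held no UMI of it in the other 5 libraries, where a count of 0 allows a level of up to 12.3 CPM in Ctrl-1, 6.15 in Ctrl-3, 3.93 in D0-3, 4.62 in D2-1 and 4.93 in D2-2, all above the microglial level, so a difference between the types was not detectable at this depth. The part of free RNA in the rise was not tested. With D2-3 included the call in D0 was lost (adjusted p = 0.091). The kept myeloid cells together include monocyte-like and unnamed but not neutrophil-like cells. Over them the change of Itgal was −0.12 in D0 and −0.50 in D2. In microglia-like cells without the upper limit on UMIs it was 1.89 (adjusted p = 0.051) and 1.34 (adjusted p = 0.22) by edgeR's quasi-likelihood test.

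The other 4 members were not called in either comparison. Itgb1 held 393 CPM in Ctrl-1 but 218 and 215 CPM in the other two, 249 to 342 CPM in D0 and 352 to 396 CPM in D2. Ctrl-1 thus stood with the treated libraries, whose files came from the same Cell Ranger version. The fold changes were 0.31 ± 0.20 (adjusted p = 0.30) in D0 and 0.56 ± 0.22 (adjusted p = 0.11) in D2, and 0.63 (adjusted p = 0.011) and 0.89 (adjusted p = 0.0029) without Ctrl-1. With the version as a term, and so against Ctrl-1 alone, the change in D0 was −0.14. Itgb2 held 192, 294 and 278 CPM in Ctrl, 238 to 258 CPM in D0 and 193 and 215 CPM in D2 (0.18 ± 0.18 and −0.22 ± 0.20). Itgb5 held 940.3 to 1142 CPM in Ctrl, 956 to 1054 CPM in D0 and 842 and 967 CPM in D2 (0.16 ± 0.13 and −0.10 ± 0.15). Itga6 held 283, 223 and 221 CPM in Ctrl, 175 to 225 CPM in D0 and 203 and 202 CPM in D2 (−0.09 ± 0.12 and −0.15 ± 0.13). Scaled by total UMIs alone, the changes of Itgb2 and Itgb5 in D0 turned sign (−0.027 and −0.051). With the version as a term, and so against Ctrl-1 alone, those in D2 did (0.27 and 0.13), and that of Itgb2 in D0 was 0.67.

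Counted by range, 6 of 10 members had D0 and Ctrl libraries that did not overlap in CPM, and 48.9% of all genes did so. For D2 and Ctrl it was 7 of 10 and 52.9%, Itga6 being the seventh. Both shares lie near those of all genes.

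**Figure D3:**
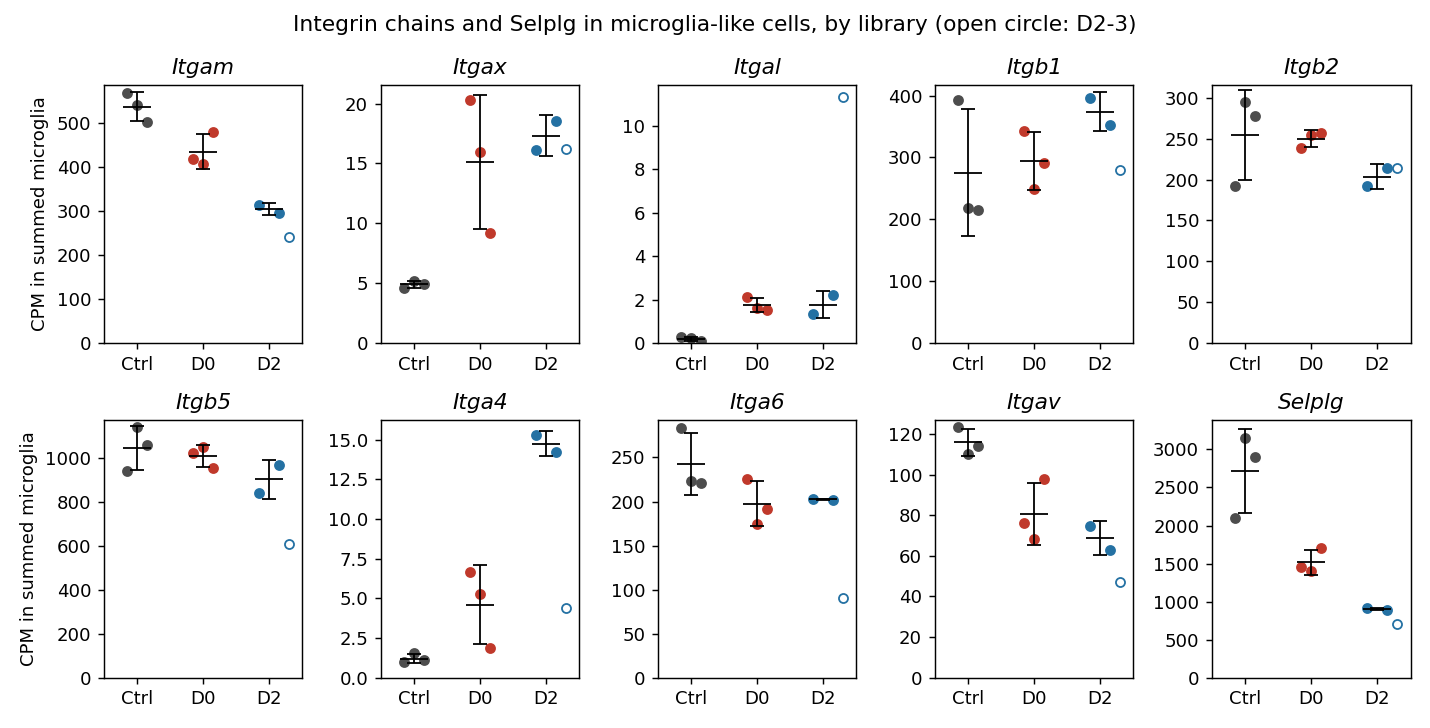
Level of each member in microglia-like cells (y axes, CPM, each from 0) in the libraries of Ctrl, D0 and D2; filled circles are libraries, horizontal bars the mean ± SD, and open circles D2-3, which is not in the mean. Itgam, Itgav and Selplg lie lower in D0 and D2 than in Ctrl, and Itgax, Itgal and Itga4 higher. Ctrl-1 lies apart from both other Ctrl libraries for Itgb1, Itgb2, Itga6 and Selplg.

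**Figure D4:**
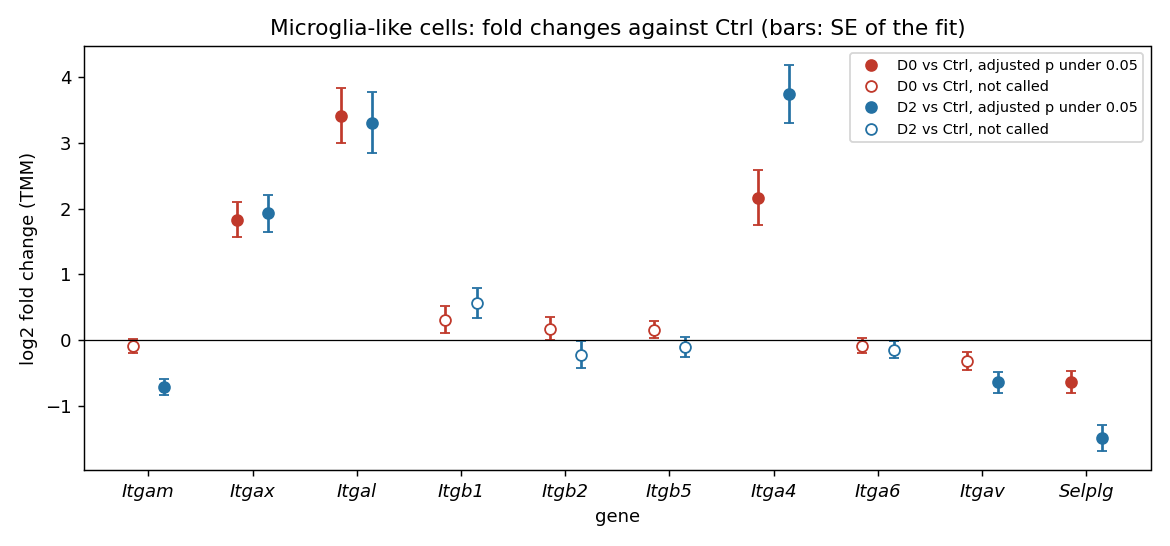
Log2 fold change of each member in microglia-like cells against Ctrl (y axis) with its SE, for D0 in red and D2 in blue; filled points passed an adjusted p of 0.05. In D0, 3 members are called higher and 1 lower, and in D2, 3 higher and 3 lower. Those called higher include Itgal, which only the D0 and D2 libraries brought past the filter.

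Between D2 and D0, which differ by 2 days without the inhibitor, no gene passed edgeR's quasi-likelihood test (0 of 12418, or 0% called), while 846 had an unadjusted p under 0.05 and DESeq2 called 26. Of the members, 5 of 10 had ranges that did not overlap (24.3% of all genes did): Itgam, Itgb2 and Selplg were lower and Itgb1 and Itga4 higher in both D2 libraries. Itgam differed by −0.62 ± 0.12 (adjusted p = 0.66), Selplg by −0.85 ± 0.20 (0.70) and Itga4 by 1.57 ± 0.40 (0.70). DESeq2 called Itgam (−0.63, adjusted p = 0.0033) and Selplg (−0.85, adjusted p = 0.020), and edgeR without the filter on low counts called Selplg (adjusted p = 0.020) and Itga4 (1.55, adjusted p = 0.020). 

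Mitotic cells, those with UMIs of at least 2 of 8 mitotic genes, made up 249 to 932 cells of the 3 D0 and 2 D2 libraries, and Ctrl had too few. Itgam was lower in them in 5 of 5 libraries, with 243 against 443 CPM in D0-1, 264 against 470.3 in D0-2, 346 against 537 in D0-3, 206 against 341 in D2-1 and 199.997 against 337 in D2-2. The fall was 0.74 on the log2 scale (−0.74 ± 0.070 SE, adjusted p = 9.7e-06). Itgal was called higher (1.38 ± 0.23, adjusted p = 6.1e-04), at 2.33 to 3.89 CPM against 0.867 to 1.87 CPM. It was counted 9 to 32 times per library in mitotic cells, and the sums of other cells alone would not have brought it past the filter. With cells thinned to 2000 UMIs, 9 members were tested and 0 called higher. The 2 of 10 members called compare with 44% of all 11222 genes (21.9% higher, 22% lower). Itgb2 was lower in 5 of 5 libraries (208 ± 22.1 against 239 ± 30.8 CPM) without passing the test (−0.18 ± 0.070, adjusted p = 0.055), and Selplg stood at 1262 ± 281 and 1272 ± 391 CPM. Monocyte markers summed to 451 to 671 CPM in mitotic and 360.0 to 613 CPM in other microglia-like cells, higher in 4 of 5 libraries. Neutrophil markers (medians 246 and 315 CPM) and lymphoid markers (52.8 and 65.0 CPM) were higher in mitotic cells in 0 of 5 libraries. The part of these markers was not tested.

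MAC2, the product of Lgals3, defines cells that the study set apart. Its rule, Lgals3 above the mean plus 1 SD, was applied here to microglia-like cells alone. The study applied it to all its microglial clusters, including a cluster marked by MHC genes, so the cells are not the same set. Here 24 to 42 microglia-like cells of each Ctrl, 89 to 336 of each D0 and 197 and 200 of the D2 libraries were MAC2+. The cut, 0.384 in log-normalized Lgals3, is exceeded by any Lgals3 UMI in a kept cell. MAC2+ thus means at least 1 Lgals3 UMI, and the split was not matched for depth. Itgax was higher in MAC2+ cells in 8 of 8 libraries, at 22.4 to 67.1 CPM against 3.98 to 15.9 CPM in MAC2- cells of the same libraries. The ranges did not overlap, and the means were 40.4 ± 14.95 and 9.96 ± 5.20 CPM (log2 fold change 1.89 ± 0.19, adjusted p = 1.4e-07). Selplg was lower in 8 of 8 libraries, from 588 to 2241 CPM against 949 to 3162 CPM (−0.67 ± 0.043, adjusted p = 1.8e-10). Itgam was lower in 8 of 8 (342 ± 104 against 449 ± 96.3 CPM, −0.39 ± 0.054, adjusted p = 1.1e-05), and so was Itga6 (179 ± 34.2 against 218 ± 31.5 CPM, −0.26 ± 0.061, adjusted p = 0.0030).

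In all, 6 of 10 members were called between MAC2+ and MAC2- cells, 2 higher and 4 lower, where 23.8% of 10768 genes were called. The others were Itgal (1.43 ± 0.33, on 0 to 14 UMIs per library in MAC2+ cells) and Itgb5 (−0.12 ± 0.044, adjusted p = 0.049 by edgeR's quasi-likelihood test). The call of Itgb5 was lost with DESeq2 and without 7 of the 8 libraries in turn. Itgal is counted although the sums of MAC2- cells alone would not have brought it past the filter, so its call gives no support for a difference. In the Ctrl libraries alone, Itgax was at 43.7, 22.4 and 54.6 CPM in MAC2+ and 4.19, 4.96 and 3.98 CPM in MAC2- cells, on 13, 6 and 25 UMIs in the former. Beside this, monocyte markers summed to a median of 483 CPM in MAC2+ and 426.5 CPM in MAC2- cells (higher in 7 of 8 libraries), dendritic cell markers to 52.8 and 67.7 CPM (0 of 8) and BAM markers to 129 and 141 CPM (3 of 8; from 91.9 to 726 CPM in MAC2+ and from 118 to 265 CPM in MAC2- cells), with no gene of these lists at 0. Microglia markers were lower in MAC2+ cells in 8 of 8 libraries (medians 14600 and 18764 CPM). The part of these markers in the differences was not tested.

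**Figure D5:**
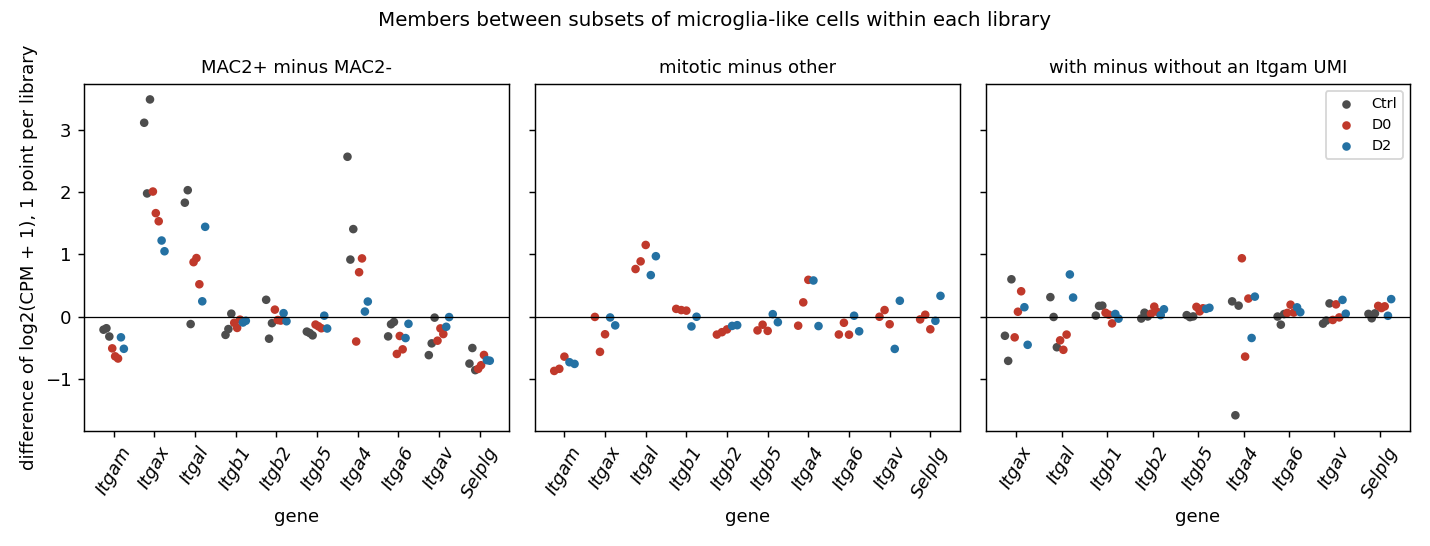
Difference in log2(CPM + 1) of each member between subsets of microglia-like cells of the same library (y axis), 1 point per library coloured by condition; the panels give MAC2+ minus MAC2-, mitotic minus other, and cells with minus cells without an Itgam UMI. Itgax lies above 0 and Selplg and Itgam below 0 in all 8 libraries of the first panel, and Itgam below 0 in all 5 of the second.

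Clusters of microglia-like cells are given as a description, with no test, over the 5 D0 and D2 libraries, since the clusters of dividing cells were measured in no Ctrl library. Itgax was at 8.86 ± 4.09 CPM in a cluster led by Csmd3 and Nav3 and 9.39 ± 1.83 CPM in one led by Ecscr and Crybb1, and at 22.5 ± 4.14 CPM in one led by Ifi27l2a, Igf1 and Axl and 23.3 ± 8.29 CPM in one led by Tnf and Egr1. A cluster led by the interferon-induced genes Ifit3 and Isg15 was measured in D0-1 and D2-1 only, at 52.7 and 26.3 CPM of Itgax, where the Tnf-led cluster held 35.4 and 18.7 CPM. Itgam was lower in both clusters of dividing cells than in all others in each of the 5 libraries, with means of 237 ± 58.7 CPM in that led by Top2a and Mki67 and 263 ± 83.0 CPM in that led by Ccnb2 and Birc5, against 485 ± 75.3 CPM in that led by Slc2a5 and Bank1. Selplg ranged from 1047 ± 334 CPM in the Tnf-led to 1557 ± 383 CPM in the Top2a-led cluster, with SDs that include the difference between D0 and D2. Within each of the 5 libraries the Top2a-led cluster was above the Tnf-led: 1549 against 1128 CPM in D0-1, 1881 against 1184 in D0-2 and 1945 against 1482 in D0-3. In D2-1 it was 1001 against 818 CPM and in D2-2 1409 against 622. The 2 clusters of dividing cells did not stand together (1139 ± 278 CPM in the Ccnb2-led). Itgb5 varied less, from 840 ± 89.9 to 1021 ± 71.6 CPM.

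Neutrophil-like cells, which are sorted by the same protein, were compared between D0 and Ctrl in 7 libraries, Ctrl-1 having under 20 such cells. None of the 9 members tested was called, but only 0.0869% of 4605 genes were (0.0217% higher, 0.0651% lower), 464 having an unadjusted p under 0.05 and DESeq2 calling 16 genes. Itgam held 510 and 595 CPM in Ctrl and 405, 425 and 493 CPM in D0 (−0.07 ± 0.29, adjusted p = 0.96). Selplg held 1849 and 814 CPM in Ctrl and 826, 396 and 711 CPM in D0 (−0.79 ± 0.35, adjusted p = 0.49). The mix of neutrophil clusters differed: all 89 cells of Ctrl-2 were Cxcr2-led, whereas 248 of 516 in D0-2 were Camp-led. In Cxcr2-led cells alone, Selplg held 1849 CPM in Ctrl-2 and 1195, 999.5 and 1060 CPM in D0, with too few such cells in Ctrl-3. The part of this mix was not tested, here or in the difference of responses below. A test of the difference between microglia-like and neutrophil-like cells in their response was added after the data had been seen. By edgeR's quasi-likelihood test it called Itgal alone among the members (3.67 ± 0.56, adjusted p = 3.5e-08), where 1.15% of 11980 genes were called. The microglia-like cells held 4 and 2 Itgal UMIs in Ctrl-2 and Ctrl-3. Their Ctrl sums alone would not have brought Itgal past the filter, so its call gives no support for a difference. For Selplg the difference of the responses was −0.15 ± 0.36 (adjusted p = 0.98). The same comparison in BAM-like cells could not be made, since at least 20 of them were found in each Ctrl library (33 to 114) but in none of D0 or D2 (3 to 13).

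Other genes of integrin and selectin biology were followed as lists. Of 12 other alpha chains, 4 were measured well enough to be tested in microglia, and of 5 other beta chains 1, Itgb3, the platelet and osteoclast chain that pairs with Itgav. It was lower in D0 (−0.59 ± 0.16, adjusted p = 0.027) and D2 (−0.94 ± 0.18, adjusted p = 0.0066), and 1 of the alpha chains was lower in each. Of 13 selectins and genes that modify or read PSGL-1, 10 were tested, and 2 were higher and 4 lower in D0 and in D2, where 20.2% and 18.4% of all genes were called. The higher ones, named after their values were seen, were the sialyltransferase St3gal1 and the tyrosine sulfotransferase Tpst1. The mean level of each was under 20 CPM in Ctrl and in D0, below the limit set for naming genes. By edgeR's quasi-likelihood test St3gal1 changed by 1.12 ± 0.23 (adjusted p = 0.0093) in D0 and 1.08 ± 0.26 (adjusted p = 0.018) in D2. Tpst1 changed by 0.82 ± 0.23 (0.034) and 0.90 ± 0.25 (0.037). The lower ones in D0 were Gcnt1, which builds the core on which selectin ligands are made (−0.85 ± 0.18, adjusted p = 0.0093), Vsir, which encodes the receptor VISTA (−0.56 ± 0.12, 0.010), the sialyltransferase St3gal6 (−0.53 ± 0.094, 0.0041) and the tyrosine sulfotransferase Tpst2 (−0.50 ± 0.14, 0.031). The median of the list was −0.33 in D0 and −0.34 in D2, against −0.05 and −0.03 over all genes tested.

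Of 16 integrin ligands, 14 were tested. In D0 2 were higher and 2 lower, where 20.2% of all genes were called. In D2 3 were higher and 4 lower, where 18.4% of all genes were called. Vcam1, a ligand of the Itga4 receptor, was higher (1.52 ± 0.24, adjusted p = 0.0022, in D0 and 1.54 ± 0.26, adjusted p = 0.0032, in D2). The junction proteins Jam3 (−1.36 ± 0.18, adjusted p = 8.3e-04, in D0) and F11r (−0.40 ± 0.12, adjusted p = 0.043), which leukocyte integrins can bind, were lower. Of 35 genes of integrin activation and adaptors, 31 were tested, with 3 higher and 4 lower in D0 and 2 higher and 6 lower in D2. Those lower in D0 included the actin-linking Actn1 (−1.11 ± 0.26, adjusted p = 0.016), Tln2 (−0.59 ± 0.16, 0.030) and Pxn (−0.54 ± 0.14, 0.029), while filamin A, encoded by Flna, was higher (0.88 ± 0.26, 0.042). The 7 of 31 called in D0 lie near the 20.2% of all genes, and in D2 the share of all genes was 18.4%. The 8 dissociation genes, a sign of handling, had 1 higher (Fos, 0.55 ± 0.14, adjusted p = 0.020) and 1 lower (Jun, −0.45 ± 0.14, 0.044) in D0. Their sum was 7499 to 11599 CPM in Ctrl, 6371 to 10389 CPM in D0 and 6924 to 8268 CPM in D2.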

How the data were processed

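The authors aligned reads to mm10 and counted UMIs per gene and cell with Cell Ranger (version 3.1.0 per the labels; the deposited file headers give 3.0.2 for 6 libraries and 3.1.0 for 3, namely D2-3, Ctrl-3 and Ctrl-2). The deposited values are raw counts, with no normalization. Barcodes were dropped below 500 or above 20000 UMIs, below 200 genes, or where mitochondrial genes gave over 10% of UMIs; no doublet caller was run, and the upper limit removed 1.20% to 24.2% of barcodes in the libraries other than D2-3. Cells were clustered with scanpy 1.11.5 and leidenalg 0.10.2 (3000 variable genes without the members, 10 principal components, resolution 0.6). Types other than microglia were named from at least 3 markers at 20 CPM or more and above a log2 fold of 1. No microglia marker passed that fold in the microglia-like clusters, which were named from microglia markers at 100 CPM or more (10 in each). The unnamed clusters of few UMIs also held all 10 at that level. D2-3 cells were placed by their 30 nearest neighbours.

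UMIs were summed per library and type and tested with edgeR 4.0.16 (quasi-likelihood, TMM factors, filterByExpr, Benjamini-Hochberg adjustment over all genes, threshold 0.05) in R 4.3.3; DESeq2 1.42.0 was an alternative, with other filters, scalings, thinning, cell sets and each library left out. Code was tested on simulated data. Shares of cells were compared by exact permutation over every regrouping of the libraries (numpy 2.4.6). The named genes were the members, the 3 genes most alike each member, and up to 4 called genes per list, those with the largest change in D0 at 20 CPM or more. St3gal1 and Tpst1, below that level, were named besides. The members and lists were chosen with earlier results of these data known. Replicate numbers were taken from the sample titles. Deviations of same-numbered libraries correlated at 0.606, 0.431 and 0.313 between Ctrl and D0, at 0.0803 and 0.150 between Ctrl and D2, and at −0.136 and 0.400 between D0 and D2. Those of different numbers reached 0.450 between Ctrl-3 and D0-2 and 0.467 between D0-3 and D2-1, so these values do not establish a pairing by number. Libraries of a condition held separate mice per the labels, so p-values measure the spread between mice in Ctrl and between pools of 2 in D0 and D2.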

Additional observations from a re-analysis of the deposited data

Results flagged for a closer look

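The response of Itgal in D0 differed between microglia-like and neutrophil-like cells by 3.67 on the log2 scale (edgeR's quasi-likelihood test, adjusted p = 3.5e-08). This tested the difference itself, without Ctrl-1. The microglia-like cells in it held 4 and 2 Itgal UMIs in Ctrl-2 and Ctrl-3 and 129 in all D0 libraries. At this level RNA of other cells could not be told from expression. The Ctrl sums of microglia-like cells alone would not have brought Itgal past the filter, so the p-value gives no support for a difference. D2-3, which entered no comparison, held 16.2 CPM of Itgax, 11.3 CPM of Itgal and 4.38 CPM of Itga4 in its microglia-like cells, each above all Ctrl libraries. Its Itgal level was also above that of every other library. Of its kept cells 27.3% were monocyte-like, the type with the highest Itgal level (318 ± 207 CPM over the other libraries), and the part of their RNA was not tested.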

How the results depend on the processing

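Replicate numbers as a block changed no call of a member, with 2957 genes called in D0 and 2283 in D2. The scaling by total UMIs and the comparison with neutrophil-like cells were added after the data had been seen. Of the members, 4 were called in D0 (3 to 5 with a library left out) and 1 with D2-3 included. Over all kept myeloid cells, neutrophil-like cells not among them, 2 were, where 2611 of all 12801 genes were called. In D2 6 were called (5 to 7). Between D2 and D0 none was (0 to 0), but 2 with DESeq2 and 2 without the filter on low counts. Between cells with and without an Itgam UMI 2 were called (0 to 2), and 0 with DESeq2. With cells thinned to 4000 UMIs 3 of the 8 members tested were, where 557 of all 9993 genes were called. Mitotic cells gave 2 (2 to 4), and 5 with at least 3 mitotic genes, where 5019 of all 11075 genes were called. MAC2+ cells gave 6 (5 to 6), and the difference from neutrophil-like cells 1 (1 to 3). The share without an Itgam UMI differed by 5.03 to 7.72 points in D0 and 17.8 to 21.0 in D2 with a library left out, by 3.01 and 16.3 without mitotic cells, and by 22.7 in D2 with D2-3.

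Over all genes, calls in D0 numbered 477 with D2-3, 1381 thinned and 1063 without mitotic cells. They numbered 3928 scaled by total UMIs (29.3% of them higher, against 62.0%) and 1239 to 2596 with a library left out. Those in D2 numbered 1282 with D2-3, 1410 thinned and 1225 without mitotic cells, and 1351 to 3019 with a Ctrl or D0 library left out. D2 against D0 gave 26 with DESeq2, 38 unfiltered and 0 to 1. The split by Itgam gave 90 with DESeq2, 557 at 4000 UMIs and 184 to 331. Mitotic cells gave 3158 when thinned (3494 to 5893), and MAC2+ cells 523 by any Lgals3 UMI in thinned D0 and D2 cells (1926 to 2564). Neutrophil-like cells gave 16 with DESeq2, 130 unfiltered and 0 to 59, and their difference from microglia 47 with DESeq2 and 70 to 139.

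Signs turned as follows; the cause was not tested. In D0: Itgam thinned (0.033) and without mitotic cells (0.086), Itgal over all myeloid cells (−0.12), Itgb1 with the version (−0.14), Itgb2 and Itgb5 by total UMIs (−0.027 and −0.051). In D2: Itgal over all myeloid cells (−0.50), and with the version Itgb2 (0.27) and Itgb5 (0.13). In D2 against D0: Itgax with the replicate block (−0.026) and thinned (−0.043), Itgal with D2-3 (1.61), Itga6 by total UMIs (0.037). In the split by Itgam, Itgax at 4000 UMIs (0.13). In mitotic cells, Selplg unfiltered (−0.0074). In MAC2+ cells, Itgb1 by any Lgals3 UMI in thinned cells (0.063) and Itgb2 unfiltered (−0.023), by total UMIs (−0.016) and by any Lgals3 UMI in thinned cells (−0.082). In neutrophil-like cells, Itgam and Itgal unfiltered (0.15 and 0.19). With a library left out, signs turned in D0 for Itgb2 (−0.00096 to 0.32) and Itga6 (−0.16 to 0.016), in D2 for Itgb5 (−0.24 to 0.051), in D2 against D0 for Itgax (−0.16 to 0.31), Itgal (−0.51 to 0.28) and Itga6 (−0.11 to 0.013), in the split by Itgam for Itgax (−0.11 to 0.031), in mitotic cells for Itgav (−0.11 to 0.074) and Selplg (−0.053 to 0.10), in neutrophil-like cells for Itgam (−0.27 to 0.33), Itgal (−0.32 to 0.54), Itgb2 (−0.12 to 0.48) and Itga4 (−0.056 to 1.13), and in their difference from microglia for Itgam (−0.50 to 0.12), Itgb2 (−0.58 to 0.016) and Selplg (−0.63 to 0.14). Of 100 levels by type, 90 stayed within 1 SD at resolution 0.3, 89 at 1.0 and 85 without the upper UMI limit. BAM-like cells could not be tested, with under 20 per treated library.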

Other observations

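Dendritic cell-like cells fell into a cluster led by Cd209a (371 cells) and one led by Ccr7, the receptor of migrating dendritic cells (34 cells, in no library as many as 20). Summed over all their cells, those led by Ccr7 held 413 CPM of Itga4, 491 CPM of Itgb1 and 656 CPM of Selplg, against 157, 232 and 318 CPM in those led by Cd209a. They held 24.0 CPM of Itgax and 24.0 CPM of Itgam, against 86.8 and 119 CPM. The small number of cells allows no test. The unnamed cells held 305 ± 91.4 CPM of Itgam, 681 ± 103 CPM of Itgb5 and 34.3 ± 8.95 CPM of Itga4 over 8 libraries.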
